A study of Mus musculus with 7 samples.

Results

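The 45 Hox, Meis, Pbx and Pknox genes with a probe set of their own were taken, by symbol, from 19938 genes measured in sorted cells of the fetal mouse bowel: 10 genes of the Hoxa cluster, 9 each of the Hoxb, Hoxc and Hoxd clusters, and 8 cofactor genes (Meis1 to Meis3, Pbx2 to Pbx4, Pknox1 and Pknox2). Values were read on 7 microarrays at embryonic day 17.5. All embryos carried the Wnt1-Cre transgene, which is active in the premigratory neural crest, and the R26R-EYFP reporter, which is switched on for good in any cell where Cre has acted and in its daughters. The 4 YFP-positive arrays hold enteric neural crest-derived cells (ENCDC), the source of the neurons and glia of the bowel wall, and the 3 YFP-negative arrays hold the remaining bowel cells, labelled non-ENCDC. The whole bowel was sorted, so cells from different levels along the tube were pooled in every sample. The sample titles name no segment of the bowel. The labels name no strain, no sex and no number of embryos per sample and do not say that samples came from separate litters, so a p-value covers the spread among these 7 samples and no more.

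Hox genes encode homeodomain transcription factors that give cells an address along the head-to-tail axis. They lie in the A, B, C and D clusters, where the order of the genes follows the order of their expression domains: members of the low-numbered paralog groups are active up to the hindbrain, those of the high-numbered groups only towards the tail, and genes with the same number in different clusters are paralogs. Meis, Pbx and Pknox proteins are homeodomain partners of the TALE class that bind DNA together with Hox proteins. In the gut, Hox genes are active both in the mesoderm of the wall and in the crest cells that enter it, most of which come from the vagal (hindbrain) level and a minority from the sacral level, and Hoxb5 is known for its part in the expression of the receptor gene Ret in vagal crest.

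The 12 Hox genes that were higher in ENCDC all came from paralog groups 2 to 6, and the Hox genes that were lower came, with 1 exception, from groups 8 to 11. Of the 45 genes, 24 were called by limma (adjusted p under 0.05), or 53.3%, where 17.5% of all 19938 genes were. In each direction 12 were called and 6 of those differed at least 2-fold, where 8.39% of all genes were higher, 9.11% were lower and 7.66% were called with at least a 2-fold difference in either direction. The median log2 fold change of the 45 was -0.01 and that of all genes 0.01, while the median size regardless of sign was 0.53 against 0.14. For 29 of the 45 genes every array of one group lay above every array of the other, against 26.9% of all genes.

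Read by paralog group, the Hoxa cluster held 5 higher genes at the low-numbered end and 3 lower genes beyond them. Hoxc and Hoxd each held 1 higher gene, Hoxc4 and Hoxd3, and 4 lower genes beyond it. Hoxb held 5 higher genes and no lower gene among those measured. Beyond group 6 the measured Hoxb genes were Hoxb7, Hoxb9 and Hoxb13, the last with 1 value of 4.29 on 4 arrays. Hoxb8 was left out because its probe set also names Hoxb7. Of the 17 measured genes in groups 1 to 6, 12 were higher and 1 was lower in YFP-positive cells, with a median log2 fold change of 0.79. Of the 20 in groups 7 to 13, 0 were higher and 10 lower by limma (0 and 11 at an unadjusted p under 0.05), with a median of -0.50. The 10 lower genes were 6 without YFP-negative array 2. When limma asked for more than a 1.5-fold difference, 6 of the 45 genes were higher (Hoxb5, Hoxd3, Hoxa5, Hoxa2, Hoxa3 and Hoxb4) and 3 lower (Meis2, Hoxc6 and Hoxa11). Over all 19938 genes that test gave 469 higher and 558 lower. This division by paralog number was known from earlier results of these data and is a description.

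**Figure D1:**
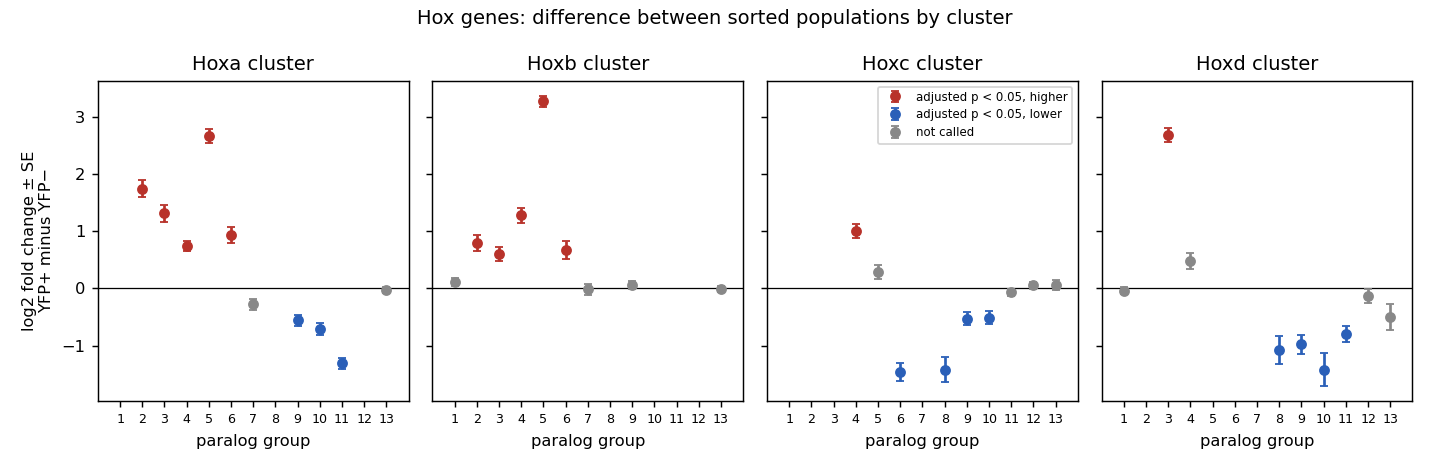
Log2 fold change (YFP-positive minus YFP-negative, with the standard error of the limma fit) of 37 Hox genes against paralog group, a panel for each cluster; red and blue points passed an adjusted p of 0.05 and grey points did not. Red points lie at groups 2 to 6 and blue points at groups 6 to 11, and Hoxb5, at 3.27, is the highest point.

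The level of a gene in sorted cells can move with the mix of cell types, and fewer cells of a type cannot be told apart from less RNA per cell. Neuron and glia markers went with the labels. In YFP-positive cells 5 of 5 measured neuron markers and 4 of 4 glia and progenitor markers were higher. Their mean log2 levels were 8.74 to 9.43 and 8.93 to 9.45, against 4.73 to 5.21 and 5.54 to 6.01. Other lists were mixed: of 3 markers of interstitial cells of Cajal and of 5 endothelium markers, 1 each was higher and 2 each were lower. All 7 fibroblast and mesenchyme markers and 2 of 6 smooth muscle markers were lower, and the 6 myeloid markers stood at a mean of 5.38 to 6.78 against 9.98 to 10.29. Arrays of the same group were not alike. The 2 measured erythroid markers of 5 listed had a mean of 6.46, 9.33 and 11.41 on YFP-negative arrays 1 to 3. On the YFP-positive arrays it was 5.62 to 6.04. The part of erythroid cells in calls that were lost without 1 YFP-negative array was not tested. The mean of the 13 fibroblast and smooth muscle markers was 7.68, 8.21, 8.80 and 9.12 on YFP-positive arrays 1 to 4, and 10.24, 10.20 and 9.68 on YFP-negative arrays 1 to 3, and the 8 epithelium markers overlapped between the groups (6.97 to 8.12 against 7.73 to 7.76). The values have no detection call, so a low level may be mostly background.

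Promoters of members that moved apart are shown for comparison, from the RefSeq table of build GRCm38.p6, which held 26 of the 45 genes and no entry for Hoxb5. Each stretch is the 250 bases before the annotated start, on the strand of the gene. Hoxd3 and Hoxa5 had the largest increases and Meis2 the largest decrease among the genes in the table, and Hoxa2 held matches to both cofactor motifs. Capitals mark a match on either strand to TGACAG, the core bound by Meis and Pknox proteins, to TGATTNAT, a joint site of Pbx and Hox proteins, or to TTTATNG, a site of posterior Hox and Cdx proteins. The letters of these motifs do not overlap one another in the stretches shown.
Hoxd3, chr2:74711743-74711992, forward strand: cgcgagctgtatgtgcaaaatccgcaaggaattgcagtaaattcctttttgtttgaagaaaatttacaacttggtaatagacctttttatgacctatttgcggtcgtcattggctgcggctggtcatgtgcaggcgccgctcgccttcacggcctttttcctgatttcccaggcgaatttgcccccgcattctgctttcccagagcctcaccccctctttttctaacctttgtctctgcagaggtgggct
Hoxa5, chr6:52204588-52204837, reverse strand: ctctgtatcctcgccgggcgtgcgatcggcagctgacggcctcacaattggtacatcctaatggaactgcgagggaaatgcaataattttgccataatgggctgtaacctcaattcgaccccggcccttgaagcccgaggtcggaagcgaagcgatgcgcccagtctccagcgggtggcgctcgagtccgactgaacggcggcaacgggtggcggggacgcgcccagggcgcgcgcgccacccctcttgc
Hoxa2, chr6:52164832-52165081, reverse strand: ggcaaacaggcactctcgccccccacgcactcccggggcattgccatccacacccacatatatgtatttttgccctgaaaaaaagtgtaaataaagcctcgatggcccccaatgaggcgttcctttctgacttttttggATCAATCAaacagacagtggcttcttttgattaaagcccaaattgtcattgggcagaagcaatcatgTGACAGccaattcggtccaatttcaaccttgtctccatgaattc
Meis2, chr2:116064620-116064869, reverse strand: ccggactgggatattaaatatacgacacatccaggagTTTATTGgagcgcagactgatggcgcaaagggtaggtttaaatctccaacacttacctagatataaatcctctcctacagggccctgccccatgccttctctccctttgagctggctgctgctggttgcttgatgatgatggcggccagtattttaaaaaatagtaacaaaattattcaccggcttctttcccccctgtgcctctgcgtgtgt

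TGACAG was found in 2 of the 26 promoters, Hoxa2 and Hoxa3, both of genes that were higher in ENCDC, and in 16.0% of 27025 mouse promoters of the same length. TGATTNAT was found in 1 of 26, Hoxa2, against 2.99% of all, and TTTATNG in 3 of 26 (Hoxd4, Meis2 and Pbx4) against 10.2% of all. The retinoic acid response element here 2 copies of AGGTCA in the same direction with 5 bases between them, was in 0 of 26 and in 2 of all 27025. These counts describe letters in 250-base stretches and name no bound site. The stretches had a median GC content of 58.6% and a median of 12 CpG, against 52.0% and 6 over all promoters. The 7 of them whose genes were higher had 62.0% and 14, and the 8 whose genes were lower 50.6% and 7.

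In the Hoxb cluster, the higher genes ran without a gap from Hoxb2 to Hoxb6 and no measured gene was lower, with Hoxb8 not measured. Hoxb5, the crest gene linked to Ret, had log2 levels of 9.93, 10.08, 9.91 and 9.68 on YFP-positive arrays 1 to 4 and of 6.57, 6.64 and 6.67 on YFP-negative arrays 1 to 3. Every YFP-positive array lay more than 3 log2 units above every YFP-negative array, and the arrays of each group lay close together. Its level was 9.67-fold higher in ENCDC (log2 fold change 3.27 with SE 0.10, limma adjusted p = 1.48e-05), number 53 from the top among all 19938 genes. Hoxb4, a gene of the hindbrain and of blood stem cells, read 7.57, 7.69, 7.40 and 7.57 against 6.51, 6.32 and 6.0, which do not overlap (1.28 ± 0.13, limma adjusted p = 7.34e-04).

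Hoxb2, which patterns the hindbrain, read 7.17, 7.15, 7.09 and 7.24 on the YFP-positive arrays and 6.52, 6.59 and 6.0 on the YFP-negative arrays (log2 fold change 0.79 with SE 0.14, limma adjusted p = 0.00886). YFP-negative array 3 was the lowest of all and the YFP-positive arrays were nearly level. Hoxb3 (0.60 ± 0.12) and Hoxb6 (0.67 ± 0.15) rose by less. The call of Hoxb3 was lost without YFP-negative array 2 (limma adjusted p = 0.0572) and that of Hoxb6 with the removal of YFP-negative array 2 or 3 or of YFP-positive array 1 (0.0845, 0.0785 and 0.0727), which left 3 higher genes without YFP-negative array 2. The ends of the cluster did not pass: Hoxb1 stood at 0.11 ± 0.07, Hoxb7 at -0.02 ± 0.09, Hoxb9 at 0.05 ± 0.07 and Hoxb13 at -0.01 ± 0.05 (log2 fold change ± SE). Of the 9 genes 5 were higher and 0 lower by limma, also at an unadjusted p under 0.05, with a median log2 fold change of 0.60. At that unadjusted p 2962 of all 19938 genes were higher and 3054 lower.

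**Figure D2:**
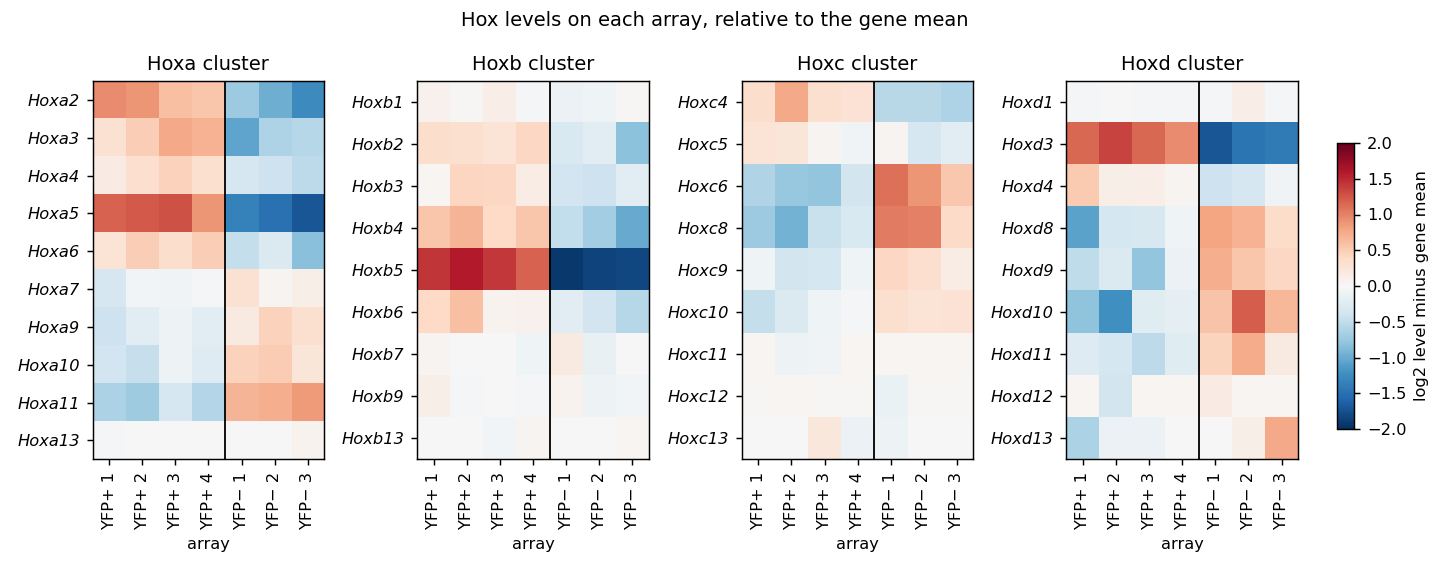
Log2 level of each of the 37 Hox genes on each array (columns, YFP-positive left of the line and YFP-negative right of it) minus the mean of the gene over the 7 arrays, in cluster order from the top. The rows of Hoxa2 to Hoxa6, Hoxb2 to Hoxb6, Hoxc4 and Hoxd3 are red in the YFP-positive columns, and those of Hoxa9 to Hoxa11, Hoxc6 to Hoxc10 and Hoxd8 to Hoxd11 are blue there.

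In the Hoxa cluster the turn was complete: Hoxa2 to Hoxa6 were all higher and Hoxa9 to Hoxa11 all lower in ENCDC. Hoxa5, a gene known for roles in lung and gut development, read 9.06, 9.11, 9.16 and 8.77 on YFP-positive arrays 1 to 4 and 6.53, 6.40 and 6.18 on YFP-negative arrays 1 to 3. The groups were far apart, with a 6.30-fold higher level in ENCDC (log2 fold change 2.66 with SE 0.12, limma adjusted p = 3.85e-05). Hoxa2, which patterns the hindbrain and the crest of the pharyngeal arches, read 8.04, 7.97, 7.69 and 7.65 against 6.36, 6.11 and 5.82 (1.74 ± 0.15, limma adjusted p = 4.20e-04). Its YFP-positive arrays 1 and 2 were above arrays 3 and 4, and all were above the YFP-negative arrays.

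Hoxa3, of the paralog group that shapes pharyngeal organs, went the other way within the YFP-positive group: 6.60, 6.78, 7.04 and 6.98 against 5.24, 5.67 and 5.72 on the YFP-negative arrays (log2 fold change 1.31 with SE 0.15, limma adjusted p = 0.00141). Hoxa4 (0.74 ± 0.09) and Hoxa6 (0.93 ± 0.14) also rose. The RefSeq span of Hoxa3 overlaps those of Hoxa4, Hoxa5 and Hoxa6, and over the 37 Hox genes 10 have a span that overlaps another Hox gene, so a probe set there may read a transcript of its neighbour.

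At the other end, Hoxa11, known for limb and uterus development, read 4.73, 4.65, 5.02 and 4.77 on the YFP-positive arrays and 6.03, 6.09 and 6.20 on the YFP-negative arrays. That is a 2.49-fold lower level in YFP-positive cells with no overlap (log2 fold change -1.31 with SE 0.10, limma adjusted p = 2.00e-04). Hoxa10 read 5.14, 5.06, 5.41 and 5.26 against 5.98, 6.02 and 5.76 (-0.71 ± 0.11, limma adjusted p = 0.00425). Hoxa9 read 5.08, 5.26, 5.39 and 5.28 against 5.68, 5.95 and 5.81 (-0.56 ± 0.10, limma adjusted p = 0.00742). Both are posterior genes whose paralogs pattern the lower trunk and limbs, and for both the highest YFP-positive array was array 3. Hoxa7, between the higher and lower stretches, had a log2 fold change of -0.28 ± 0.10 that did not pass (limma adjusted p = 0.112), although its ranges did not overlap. Hoxa13, a gene of the hindgut and cloaca, had the same value of 4.51 on 5 of 7 arrays and a fold change of -0.03 ± 0.05.

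In the Hoxc cluster 1 of 9 genes was higher and 4 were lower, with the change from higher to lower between Hoxc4 and Hoxc6; in the Hoxa cluster it lay between Hoxa6 and Hoxa9. Hoxc4 read 6.82, 7.23, 6.79 and 6.75 on YFP-positive arrays 1 to 4 and 5.92, 5.92 and 5.85 on YFP-negative arrays 1 to 3 (log2 fold change 1.0 with SE 0.12, limma adjusted p = 0.00170). YFP-positive array 2 was the highest, and the groups were apart. Hoxc6, a gene of the thoracic trunk, read 5.90, 5.75, 5.72 and 6.13 against 7.60, 7.38 and 7.04. It was 2.76-fold lower in ENCDC (-1.46 ± 0.16, limma adjusted p = 9.45e-04), whereas its paralogs Hoxa6 and Hoxb6 were higher. It was the only lower gene of paralog groups 1 to 6. Hoxc5 lay between them at 0.29 ± 0.12, with overlapping ranges (limma adjusted p = 0.165).

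Hoxc8, which patterns the thoracic level, read 5.0, 4.77, 5.27 and 5.42 on the YFP-positive arrays and 6.76, 6.73 and 6.10 on the YFP-negative arrays (log2 fold change -1.42 with SE 0.22, limma adjusted p = 0.00438). Within each group its order followed that of the mesenchymal markers loosely, with YFP-positive arrays 3 and 4 above arrays 1 and 2 and YFP-negative array 3 below both others. Hoxc9 read 5.63, 5.35, 5.37 and 5.63 against 6.14, 6.06 and 5.87 (-0.53 ± 0.11, limma adjusted p = 0.0145), and its call was lost with the removal of YFP-negative array 1 (0.0569) or 2 (0.0623) and of YFP-positive arrays 3 and 4 together (0.0719). Hoxc10 (-0.51 ± 0.11, limma adjusted p = 0.0223) lost its call without any one of the YFP-negative arrays (0.0596 to 0.0759) or without YFP-positive array 2 (0.0685), so that without YFP-negative array 1 or 2 the lower genes of the cluster were 2. Hoxc11, Hoxc12 and Hoxc13 had fold changes of -0.07, 0.05 and 0.06 and each had 1 value shared by 4 or 5 arrays. The cluster median was -0.07.

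**Figure D3:**
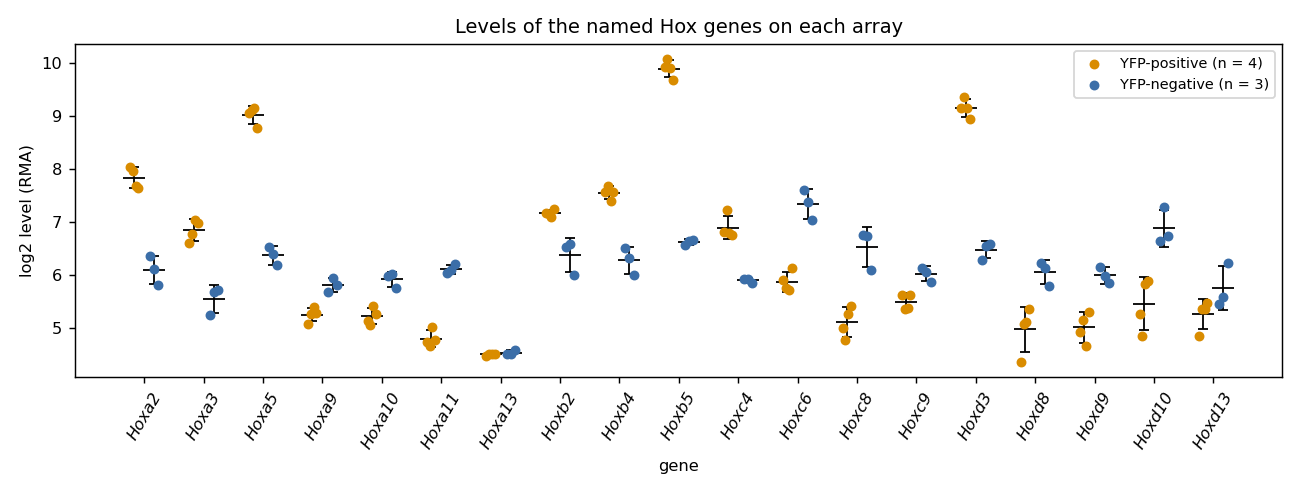
Log2 level of 19 Hox genes on each array, 4 YFP-positive (orange) and 3 YFP-negative (blue) points a gene, with the mean and SD in black. Hoxb5, Hoxd3 and Hoxa5 show the widest gaps in favour of YFP-positive cells; Hoxa11, Hoxc6 and Hoxd10 show YFP-negative points on top; the points of Hoxa13 nearly coincide.

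The Hoxd cluster held 1 gene with a large increase amid genes that fell or did not pass. Hoxd3, paralog of Hoxa3 and Hoxb3, read 9.16, 9.36, 9.15 and 8.95 on YFP-positive arrays 1 to 4 and 6.29, 6.54 and 6.59 on YFP-negative arrays 1 to 3. It was 6.41-fold higher in ENCDC with groups far apart (log2 fold change 2.68 with SE 0.12, limma adjusted p = 3.41e-05). Its neighbour Hoxd4, which shares part of its span, had no overlap between the groups but a smaller difference of 0.48 ± 0.14 that did not pass (limma adjusted p = 0.0543); it passed without YFP-negative array 3 (0.0430). Hoxd1 had the same value of 4.14 on 4 arrays and a fold change of -0.04 ± 0.06.

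The lower genes of the cluster were Hoxd8, Hoxd9, Hoxd10 and Hoxd11, a run of neighbours. Hoxd10, a gene of the lumbar level and the limb, read 5.27, 4.84, 5.83 and 5.89 against 6.64, 7.28 and 6.73 (log2 fold change -1.42 with SE 0.29, limma adjusted p = 0.0154). The spread inside the YFP-positive group was wide, with arrays 3 and 4 on top. Hoxd8 read 4.36, 5.08, 5.11 and 5.35 against 6.23, 6.13 and 5.80 (-1.08 ± 0.24, limma adjusted p = 0.0210), with YFP-positive array 1 the lowest. Hoxd9 read 4.93, 5.15, 4.65 and 5.31 against 6.16, 5.98 and 5.84 (-0.98 ± 0.16, limma adjusted p = 0.00669). Array 3 was the lowest of its YFP-positive levels, so it did not share the order of Hoxd10. Hoxd11 fell by 0.80 on the log2 scale (limma adjusted p = 0.00751).

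Several of these calls were lost when 1 array was left out. Hoxd10 lost its call with the removal of YFP-negative array 2 (limma adjusted p = 0.0658) or of YFP-positive array 1 (0.0509), and Hoxd8 with the removal of YFP-negative array 1 (0.0822) or 2 (0.0843) or of YFP-positive array 2 (0.0561). In these fits the log2 fold change of Hoxd10 was -1.23 and -1.36, and that of Hoxd8 was -0.99, -1.04 and -1.11. Without YFP-negative array 2 the lower genes of the Hoxd cluster were therefore 2 and not 4. Over all genes the lower calls were then 1166 in place of 1817. The end of the cluster did not pass. Hoxd13, a gene of the hindgut, read 4.84, 5.35, 5.35 and 5.48 against 5.46, 5.58 and 6.23 (-0.50 ± 0.23, limma adjusted p = 0.194), with overlap, and Hoxd12 stood at -0.14 ± 0.12.

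Among the cofactors, Meis2 alone was called, as lower in ENCDC, for 1 of 8 genes or 12.5%, against 17.5% of all genes. By limma 0 of the 8 were higher, and 3 were at an unadjusted p under 0.05, where 2962 of all 19938 genes were. Meis2 read 6.82, 6.93, 7.50 and 8.19 on YFP-positive arrays 1 to 4 and 9.28, 9.45 and 9.31 on YFP-negative arrays 1 to 3. The YFP-negative arrays were nearly level and the YFP-positive arrays spread over more than 1 log2 unit. It was 3.97-fold lower in ENCDC (log2 fold change -1.99 with SE 0.32, limma adjusted p = 0.00565), number 286 from the bottom among all genes.

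Its paralog Meis1 read 8.65, 8.53, 8.79 and 8.82 against 8.79, 9.04 and 8.79, with overlap (log2 fold change -0.17 with SE 0.10, limma adjusted p = 0.311). Meis3 read 6.91, 7.12, 6.89 and 6.84 against 6.79, 6.51 and 6.42, with every YFP-positive array on top, but did not pass (0.37 ± 0.11, limma adjusted p = 0.0637). It passed without YFP-negative array 1 (0.0265). The Meis genes thus gave 1 decrease and 2 uncalled values of opposite sign.

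The Pbx genes, whose products pair with Hox proteins on DNA, had no call. Pbx2 read 7.53, 7.62, 7.46 and 7.52 against 7.75, 7.77 and 7.52 (log2 fold change -0.15 with SE 0.08, limma adjusted p = 0.287). Pbx3 read 8.45, 8.38, 8.03 and 7.91 against 8.45, 8.61 and 8.17 (-0.22 ± 0.17, limma adjusted p = 0.447). Both overlapped, and the YFP-positive arrays 3 and 4 of Pbx3 were the lowest of the 7. Pbx4 read 5.89, 5.56, 5.91 and 5.56 against 5.41, 5.33 and 5.55, where the groups just failed to touch (0.30 ± 0.12, limma adjusted p = 0.135).

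The Pknox genes, close relatives of Meis, had no call either. Pknox1 read 6.95, 6.48, 6.57 and 6.61 against 6.43, 6.34 and 6.27 (log2 fold change 0.30 with SE 0.12, limma adjusted p = 0.134), with YFP-positive array 1 the highest. Pknox2 read 6.31, 6.16, 6.16 and 6.09 against 5.67, 6.48 and 5.63 (0.25 ± 0.21, limma adjusted p = 0.483). YFP-negative array 2 was above all others and the other YFP-negative arrays below, and Pknox2 passed as higher without that array (0.53, limma adjusted p = 0.0118). A p that misses the threshold does not show that a cofactor had the same level in both populations.

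**Figure D4:**
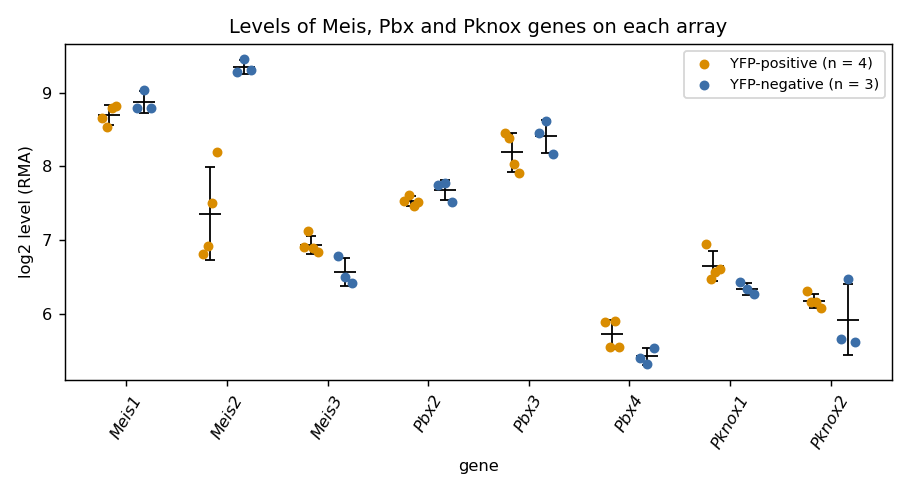
Log2 level of the 8 cofactor genes on each array, 4 YFP-positive (orange) and 3 YFP-negative (blue) points a gene, with the mean and SD in black. Meis2 has YFP-positive points from 6.82 to 8.19 below YFP-negative points from 9.28 to 9.45; for the other genes the groups lie close or overlap.

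Inside the YFP-positive group Meis2, Hoxd8 and Hoxc10 ranked the 4 arrays in the same order as the mesenchymal marker mean. No other lower Hox gene did. Hoxa9 to Hoxa11, Hoxc8 and Hoxd10 were higher on arrays 3 and 4 than on arrays 1 and 2, and Hoxc6, Hoxc9, Hoxd9 and Hoxd11 were not. Hoxb5, at 9.68 to 10.08, did not follow the marker mean, but Hoxa3, also higher in ENCDC, read 6.60, 6.78, 7.04 and 6.98. On YFP-negative arrays 1 to 3 the marker mean was 10.24, 10.20 and 9.68, while Meis2 read 9.28, 9.45 and 9.31. The order of the YFP-positive arrays was not particular to mesenchyme. Epithelium markers (6.97, 7.37, 7.91 and 8.12) and myeloid markers (5.38, 5.93, 6.64 and 6.78) had means that rose from YFP-positive array 1 to 4 too. Markers of interstitial cells of Cajal did so as well (6.91, 6.92, 7.28 and 7.66), while neuron markers fell (9.43, 9.40, 9.09 and 8.74). Which of these cell types the genes followed was not tested. With the mean of the 13 fibroblast and smooth muscle markers as a covariate, Meis2 stood at -0.71 (limma adjusted p = 0.465), Hoxd8 at -0.08 (0.938), Hoxd10 at -0.54 (0.718), Hoxc8 at -0.67 (0.430) and Hoxc6 at -1.13 (0.150), none of them called. In the same fit 8 of the 12 higher genes lost their call too: Hoxa3 stood at 1.60 (limma adjusted p = 0.0613), Hoxa6 at 1.25 (0.0702), Hoxb4 at 1.36 (0.0753), Hoxa2 at 1.5 (0.0814), Hoxb2 at 1.05 (0.156), Hoxc4 at 0.85 (0.200), Hoxb3 at 0.66 (0.317) and Hoxb6 at 0.38 (0.687). Hoxa11, the only lower member still called of 12, was at -1.21 (limma adjusted p = 0.0436), and also called were Hoxb5 at 3.02 (0.00343), Hoxa5 at 2.58 (0.0103), Hoxd3 at 2.39 (0.00766) and Hoxa4 at 0.98 (0.0290). The covariate does not overlap between the groups, so it takes up part of the group difference itself, and over all genes that fit called 270 higher and 232 lower genes in place of 1672 and 1817. The part of mesenchymal cells in the differences was not tested beyond this fit.

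**Figure D5:**
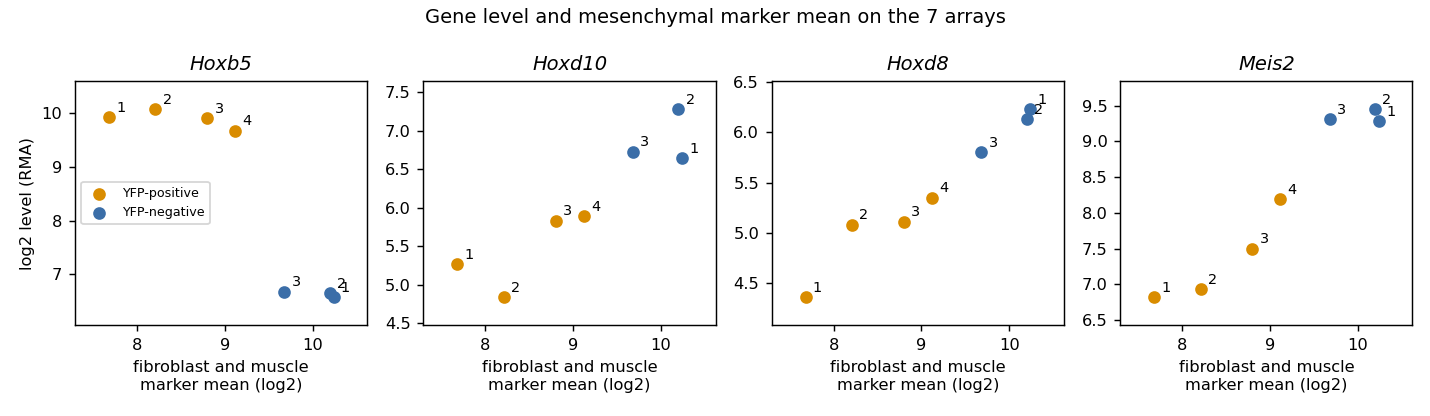
Log2 level of Hoxb5, Hoxd10, Hoxd8 and Meis2 (vertical) against the mean log2 level of 13 fibroblast and smooth muscle markers (horizontal) on the 7 arrays, numbered by replicate within YFP-positive (orange) and YFP-negative (blue); the genes were chosen after their values were seen. Among YFP-positive arrays Meis2 is 6.82 where the marker mean is 7.68 and 8.19 where it is 9.12, while Hoxb5 stays between 9.68 and 10.08.

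Without YFP-positive arrays 3 and 4, the arrays with the highest marker means of their group, 10 of the 12 higher Hox genes and 10 of the 12 lower members kept their call. The calls of Hoxb2 (limma adjusted p = 0.0792), Hoxb3 (0.0757), Hoxc9 (0.0719) and Hoxd11 (0.0643) were lost, which left 3 higher genes in the Hoxb cluster.

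Of 14 listed upstream regulators of Hox transcription 12 were measured, and 1 was higher and 1 lower in ENCDC, or 16.7% called, near the 17.5% of all genes, with a median log2 fold change of -0.01. Rarb, a retinoic acid receptor gene, rose by 1.44 ± 0.16 (limma adjusted p = 0.00106), and Aldh1a2, which makes retinoic acid, fell (-1.03 ± 0.24, limma adjusted p = 0.0239). With the mesenchymal marker mean as a covariate Rarb stood at 1.2 (limma adjusted p = 0.157) and Aldh1a2 at -0.03 (0.989), neither of them called. The call of Aldh1a2 was lost with the removal of YFP-negative array 1 (0.0909) or 2 (0.0933) or of YFP-positive array 1 (0.0584) or 2 (0.0699). The caudal genes Cdx1 (0.04 ± 0.08) and Cdx2 (-0.23 ± 0.26), activators of posterior Hox genes that are also epithelial genes of the gut, did not pass.

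Of 23 listed Polycomb and Trithorax genes, whose products hold Hox genes silent or active, 22 were measured, and 4 were higher and 1 lower, or 22.7% called against 17.5% of all genes, with a median of 0.17. Phc1 (0.57 ± 0.11, limma adjusted p = 0.0105), Bmi1 (0.55 ± 0.11, limma adjusted p = 0.0150) and Jarid2 (0.47 ± 0.10, limma adjusted p = 0.0153) of the Polycomb complexes rose, as did the methyltransferase gene Ezh2 (0.47 ± 0.10, limma adjusted p = 0.0169), and Eed, a core subunit, fell (-0.48 ± 0.08, limma adjusted p = 0.00744). Each difference was under 1.5-fold. Without YFP-positive arrays 3 and 4 together, the calls of Phc1 (limma adjusted p = 0.0657), Eed (0.0614), Ezh2 (0.0878) and Jarid2 (0.101) were lost. The call of Ezh2 was lost with the removal of YFP-negative array 1 (0.0537) or of YFP-positive array 2 (0.0540). The call of Jarid2 was lost without YFP-negative array 1 (0.0551) or 2 (0.0622) and that of Bmi1 with the removal of YFP-negative array 2 (0.0652) or of YFP-positive array 2 (0.0502), and the mean of all probe sets of Eed did not pass (-0.22, limma adjusted p = 0.0664). Of 9 other TALE genes, the Irx, Tgif and Mkx genes, 0 were higher by limma (also 0 at an unadjusted p under 0.05) and 1 was lower, Mkx (-0.87 ± 0.17, limma adjusted p = 0.0113), a gene of tendon and mesenchyme whose call was lost without YFP-negative array 2 (0.0530).

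Of 7 enteric genes linked to Hoxb5, 6 were measured. By limma 4 were higher and 0 lower (5 and 0 at an unadjusted p under 0.05). That is 66.7% called, against 17.5% of all genes, with a median log2 fold change of 2.09. Ret rose by 3.40 ± 0.18 (limma adjusted p = 6.67e-05), and Sox10 (2.52 ± 0.15), Ednrb (2.34 ± 0.10) and Foxd3 (1.84 ± 0.18) rose as well. Foxd3 lost its call with the mesenchymal marker mean as a covariate (1.91, limma adjusted p = 0.0737). This list was written with their values known and gives no independent support to the change of Hoxb5.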

How the data were processed

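Cells of whole bowel from Wnt1-Cre; R26R-EYFP embryos were sorted and total RNA was extracted with Trizol and amplified with a whole-transcriptome kit made for picogram amounts, per the labels' protocols. The submitters' processing notes name RMA and Affymetrix Expression Console, with which the authors made the deposited log2 value of each probe set. Their versions and the arrays that shared a normalization run were not given in the sources used here. RMA gave 9 of the 45 genes the same value to 6 decimals on 3 or more arrays. All sample columns were matched by name (0 unmatched).

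Of 35556 probe sets, 21789 name 1 gene in the platform annotation; where a gene has several, the brightest on average over the 7 arrays was used, which gave 19938 genes. Each of the 45 genes has 1 such probe set, and 1 probe set naming both Hoxb7 and Hoxb8 was left out. Other genes of the families are not analysed here. No low-level filter was applied, so every member was tested. Groups were compared with limma 3.58.1 (lmFit and eBayes, group as the only term) in R 4.3.3, with Benjamini-Hochberg adjustment over all genes and a threshold of 0.05; values are given as log2 fold change ± SE of the moderated fit. The number of arrays limits the precision. Tables and figures were made with Python 3.11.15, pandas 2.3.3, numpy 2.4.6 and matplotlib 3.10.9. The fit was tested on simulated data with known changes.

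Full values are given for up to 3 increases and 3 decreases past the threshold in each cluster, for every cofactor and for Hoxa5, Hoxb5, Hoxa13 and Hoxd13; other members named by value were chosen after their values were seen. The members, lists and alternatives were chosen with earlier results of these data known. The alternatives tried were a trended, robust eBayes, centring each array on its median, a second quantile normalization, leaving out the dimmest genes (a share of 0.333, by mean), averaging the probe sets of a gene, testing probe sets singly, weighting arrays, treat at a 1.5-fold difference, blocking on replicate number, omitting each array, omitting YFP-positive arrays 3 and 4, and a mesenchymal marker mean as a covariate.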

Additional observations from a re-analysis of the deposited data

Results flagged for a closer look

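Single YFP-positive arrays that stood apart from the other 3 by Dixon's gap ratio were found for 8 of the 45 genes, where chance flags about 1 in 20 groups. For Hoxc4 the array that stood apart was array 2, at 7.23 against 6.75 to 6.82, and for Hoxd4 array 1, at 6.64 against 6.17 to 6.25. Both deviate away from the YFP-negative levels. For Hoxa7 it was array 1, at 4.91 against 5.18 to 5.22. The other 5 are genes whose remaining arrays were at or near 1 repeated value: Hoxa13 on array 1 (4.47 against 4.51), Hoxb9 on array 1 (5.31 against 5.17 to 5.18), Hoxc12 on array 2 (4.08 against 4.07), Hoxd1 on array 2 (4.16 against 4.13 to 4.14) and Hoxd12 on array 2 (4.28 against 4.69). The values of Hoxa13, Hoxc12 and Hoxd1 differ by a few hundredths only. None of these 8 genes other than Hoxc4 was called between the groups.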

How the results depend on the processing

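No called gene changed direction under any of the 18 alternatives, and 4 of the 24 called genes, Hoxb5, Hoxd3, Hoxa5 and Hoxa11, were called under all of them; the other 20 lost their call in 1 or more. The alternatives with trend and robust eBayes, with every probe set tested and with the mean of all probe sets changed no call of a member. Each member has 1 probe set, so the probe set alternatives could change only its adjusted p. Trended eBayes, the 1.5-fold test and the omission of the dimmest genes also keep the fold change. None of these alternatives could change a direction. Where a value moved, the cause was not tested unless stated.

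With each array left out in turn, the higher genes numbered 11 to 13 and the lower 8 to 12 over all members, 3 to 5 higher in Hoxb, 1 to 2 higher in Hoxd, 0 to 1 higher among the cofactors, 2 to 4 lower in Hoxc and in Hoxd, and 6 to 10 lower in paralog groups 7 to 13; over all genes 1166 to 1890 were lower. Medians then ran from -0.65 to -0.26 for Hoxd, from -0.06 to 0.08 for the cofactors, from 0.69 to 0.90 for groups 1 to 6 and from -0.57 to -0.39 for groups 7 to 13.

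With the mesenchymal marker mean as a covariate, 4 members were higher and 1 lower, and 270 and 232 of all genes; Hoxa had 2 higher and 1 lower, Hoxb 1 higher, Hoxc 0 and 0, Hoxd 0 lower, the cofactors 0 lower, groups 1 to 6 had 4 higher and 0 lower and groups 7 to 13 had 1 lower, with medians of 0.49 (Hoxa), 0.38 (Hoxb), -0.08 (Hoxd), 0.98 (groups 1 to 6) and -0.10 (groups 7 to 13). The test against a fold of 1.5 gave 6 higher and 3 lower members, and 469 and 558 of all genes; Hoxa had 3 and 1, Hoxb 2 higher, Hoxc 0 and 1, Hoxd 0 lower, groups 1 to 6 had 6 higher and groups 7 to 13 had 1 lower, a stricter question by its construction.

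Without YFP-positive arrays 3 and 4, Hoxb had 3 higher genes, and the medians were -0.66 (Hoxd), 0.15 (cofactors), 0.88 (groups 1 to 6) and -0.59 (groups 7 to 13). Hoxd had 2 higher genes with array weights, with centred arrays, with a second quantile normalization and with the dimmest genes left out, through Hoxd4, and the cofactors had 1 higher gene, Meis3, in the same alternatives except centring. Array weights gave medians of -0.33 (Hoxd), -0.08 (cofactors) and -0.40 (groups 7 to 13). With the dimmest genes left out, which removes 8 members, medians were 0.74 (Hoxa), -0.53 (Hoxc), -0.80 (Hoxd), 0.11 (all members), 0.86 (groups 1 to 6) and -0.71 (groups 7 to 13).

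The labels do not say whether same-numbered arrays of the groups were paired. Their deviations from the group means correlated at 0.008, -0.086 and 0.038. These values show no common deviation but cannot tell whether the samples shared a sort. With the replicate block, Hoxd had 2 lower genes and groups 7 to 13 had 6.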

Other observations

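Non-coding transcripts of the Hox clusters were looked at after the data were seen, 12 genes in all with Evx1 and Evx2, which lie at cluster ends; of these 2 were higher and 0 lower in ENCDC by limma (2 lower at an unadjusted p under 0.05), or 16.7% called, near the 17.5% of all genes. Haglr, a long non-coding RNA read from the opposite strand beside Hoxd1 and Hoxd3, had log2 levels of 8.35, 8.49, 8.03 and 8.28 on YFP-positive arrays 1 to 4 and of 4.48, 4.79 and 5.09 on YFP-negative arrays 1 to 3. The groups were far apart, with a log2 fold change of 3.5 ± 0.17 (limma adjusted p = 4.08e-05), beside 2.68 for Hoxd3 and -0.04 for Hoxd1. Hoxaas2, an antisense transcript within the Hoxa cluster, read 6.78, 6.75, 6.64 and 6.38 against 5.68, 5.45 and 5.05 (1.24 ± 0.17, limma adjusted p = 0.00242). Its call was lost with the mesenchymal marker mean as a covariate (1.11, limma adjusted p = 0.222) and in the test against a fold of 1.5 (0.0511). Hoxd3os1 (-0.34 ± 0.13, limma adjusted p = 0.128) and Hottip (0.02 ± 0.08), which lies beyond Hoxa13, did not pass. The probe sets of the 6 microRNA genes of the clusters had 0 calls by limma (1 at an unadjusted p under 0.05, Mir615); these probe sets do not measure mature microRNAs. Whether the array keeps antisense transcripts apart from Hox transcripts was not tested.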
